A study of Homo sapiens with 4 samples.

Results

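YAP1 and WWTR1 (the gene of TAZ), the TEAD transcription factors TEAD1 to TEAD4 and the VGLL cofactors VGLL1 to VGLL4 were read from RNA-seq of ES-2 cells. ES-2 is an established human ovarian cancer cell line, labelled as clear cell carcinoma, that carries an endogenous YAP1-MAML2 (YM) fusion. The members were chosen by gene symbol. Of the 10 symbols, 9 were among the 19626 genes of the tables, and 8 of these 9 passed the expression filter that the study used, an RPKM above 1 in at least 1 library. RPKM divides each gene's reads by its transcript length and by the library's mapped reads, so that levels can be compared between genes. VGLL1 had no row in the tables, and VGLL2 stayed below the filter. The row named TAZ in these tables uses a symbol that RefSeq lists as a synonym of both TAFAZZIN and WWTR1. WWTR1 has a row of its own, which was used, and the row named TAZ was taken as TAFAZZIN and not counted as a member. That row had an RPKM of 7.68 and 8.01 in shCtl and of 4.09 and 4.17 in shM2-3.

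Control ES-2 cells (shCtl) received a pLKO.1 lentivirus whose shRNA has no target, and the other cells received one with shM2-3, an shRNA directed at MAML2. Each group had 2 replicates. Its target is shared by MAML2 and the fusion, so both transcripts can be depleted. Virus was applied for 8 h on each of 2 days, and RNA was taken 96 h after the first infection according to the labels, while the study's methods give other infection times and a shorter total time. All groups are the same cell line with the same vector backbone, and the sequencing compared 1 shRNA with 1 control. The labels call the replicates biological without saying whether they were separate cultures, so p-values measure the spread between these libraries.

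YAP1 and TAZ are transcriptional co-activators that do not bind DNA themselves. The Hippo kinase cascade phosphorylates them and holds them in the cytoplasm, and when the cascade is off they enter the nucleus and bind TEAD factors, which carry the DNA-binding domain. VGLL proteins bind TEAD on the surface that YAP1 and TAZ use, and VGLL4 is known as a competitor of YAP1. The YM fusion keeps the TEAD-binding part of YAP1 and takes its activation domain from MAML2.

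The fusion joins exon 5 of YAP1 to exon 2 of MAML2, so part of its reads fall on each of the genes. The reference sequences on either side of that join are given because they set which YAP1 reads can come from the fusion. Both are read from hg38 in transcript orientation, at chr11:102206045-102206074 on the plus strand and at chr11:96093488-96093517 on the minus strand, and capitals mark the 6 bases next to the join.
YAP1 exon 5 end: cggctgaaacagcaagaactgcttCGGCAG
MAML2 exon 2 start: CTCCAGggttccttgaaaagaaaacaggta
In the GENCODE release 44 canonical transcripts, exons 1 to 5 of YAP1 hold 1386 of 5401 exonic bases and encode 328 residues, and exons 2 to 5 of MAML2 hold 5308 of 7121.

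The libraries summed to between 20051083 and 23978660 estimated counts. The shCtl libraries held 1436 and 1402 counts of MAML2, the targeted gene, against 634 and 553 with shM2-3, a log2 fold change (log2FC, shM2-3 over shCtl) of -1.40 with a standard error (SE) of 0.0688. Its paralogs rose, MAML3 by a log2FC of 1.97 (SE 0.0979) and MAML1 by 0.44 (SE 0.0558). The epithelial keratins KRT7, KRT8 and KRT18 were present, whereas EPCAM, CDH1 and KRT19, and the clear cell markers NAPSA and PAX8, had an RPKM under 0.5 in each library. The summed RPKM of the 6 epithelial markers was 636.8 in both shCtl libraries and between 312 and 316 in shM2-3. That of 6 fibroblast markers was between 7.95 and 8.01 and between 25.1 and 25.7, nearly all from PDGFRA, with COL1A2, COL3A1, DCN, LUM and POSTN under 0.5. For 5 leukocyte markers the ranges were 57.1 to 57.4 and 40.6 to 41.9, nearly all from CD68, with PTPRC and CD3E under 0.05. CSF1R went from 0.0200 and 0.0785 in shCtl to 1.88 and 2.01 in shM2-3. CD14 went from 0.0777 and 0.102 to 0.890 and 0.866. For 4 endothelial markers the ranges were 9.40 to 10.6 and 5.09 to 5.65, mostly from CDH5, with VWF under 0.1. PECAM1 went the other way, from 0.0376 and 0.0308 in shCtl to 1.31 and 0.923 in shM2-3. Their part in the results was not tested. In these bulk samples, fewer cells of a type and less RNA per cell cannot be told apart.

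Members of this family moved in opposite directions after YM/MAML2 depletion. WWTR1, TEAD2 and VGLL4 were higher in shM2-3 by a fold change of 2 or more, TEAD4 and VGLL3 were lower by that much, YAP1 and TEAD1 rose by less, and TEAD3 did not pass the test. The test was the edgeR quasi-likelihood F test over 12157 genes, with p-values adjusted by the Benjamini-Hochberg (BH) method over all of them, and a called gene had both an adjusted p at or under 0.05 and at least a 2-fold change. Fold changes are those of this fit, whose library scaling differs from that of RPKM. Of the 8 tested members, 3 were called higher, against 9.24% of all genes tested, and 2 were called lower, against 8.93%. By adjusted p alone 7 of 8 passed, 5 higher and 2 lower, where 72.7% of all genes tested did, 36.3% higher and 36.4% lower. In 7 of 8 the RPKM ranges of the groups did not overlap, as in 86.0% of all genes tested. Of these, 5 members lay higher in shM2-3, against 38.9% of all genes tested, and 2 lower, against 47.1%. The median log2FC was 0.52 over the 8 members and -0.0037 over all genes tested. Among the 7 that passed, the BH-adjusted p of the edgeR quasi-likelihood F test ran from 5.22e-13 for WWTR1 to 1.79e-07 for YAP1.

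**Figure D1:**
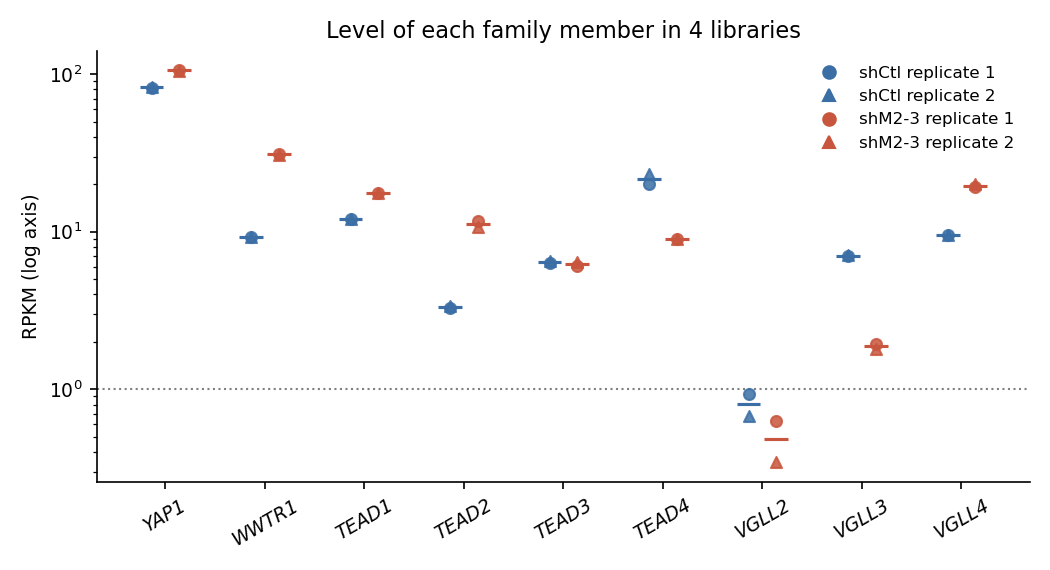
RPKM of the 9 family members in the tables, on a log axis, in each of the 4 libraries. Circles are replicate 1, triangles replicate 2, short lines the group means, and the dotted line an RPKM of 1, which VGLL2 did not reach. WWTR1, TEAD2 and VGLL4 sit higher in shM2-3, TEAD4 and VGLL3 lower, and the symbols of TEAD3 overlap.

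YAP1 was the most abundant member in each library. Its RPKM was 81.8 and 83.0 in shCtl and 106 and 105 in shM2-3. The groups did not overlap, and the gap between them was larger than the distance between replicates. The control libraries averaged 82.4 ± 0.865 RPKM (SD, n = 2) and the depleted ones 106 ± 0.317 (SD, n = 2). The log2FC was 0.42 (SE 0.0365), a 1.34-fold rise. YAP1 lies at chr11:102110447-102233424 on the plus strand, in 9 exons, and its exons share bases with 2 unnamed Ensembl genes on the other strand.

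The counts on YAP1 combine native YAP1 and the YAP1 part of the fusion, so the size of the fusion's part was bounded from MAML2. If every MAML2 count came from the fusion and reads covered the exons evenly, the fusion could supply at most 3.42% and 3.24% of the YAP1 counts in the shCtl libraries. In the shM2-3 libraries the same bound was 0.955% and 0.926%. With these reads taken off, 10573 and 10933 counts of YAP1 were left in shCtl, against 17154 and 15469.6 with shM2-3. These counts are not scaled for library size, and both shM2-3 libraries had higher total counts than both shCtl libraries. The mean RPKM of MAML2 fell by 5.38 between the groups, while that of YAP1 changed by 23.2 in the opposite direction. The bound is a share of counts and not of transcripts, since the fusion holds only exons 1 to 5 of YAP1. In RPKM, which is per length, MAML2 had 10.5% and 9.95% of the YAP1 level in shCtl. In shM2-3 it had 2.94% and 2.84%. The bound rests on gene-level counts, and reads across the join were not analysed here.

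WWTR1 encodes TAZ, the paralog of YAP1. It had an RPKM of 9.21 and 9.32 in shCtl and of 31.1 and 30.8 in shM2-3. Both shM2-3 libraries were over 3 times as high as both shCtl libraries. The mean rose from 9.26 ± 0.0756 to 30.9 ± 0.190 RPKM (SD, n = 2 each), a ratio of 3.34. The log2FC of the fit was 1.81 (SE 0.0459), or 3.50-fold. The counts behind it were 1218 and 1253 for shCtl against 5027 and 4511 for shM2-3. WWTR1 lies at chr3:149517235-149736714 on the minus strand. Its exons overlap those of WWTR1-AS1 on the other strand, which had at most 6 counts in a library, and the libraries carry no strand.

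The balance between the co-activators shifted as well, and a ratio within a library does not depend on how libraries are scaled. YAP1 had 8.88 and 8.91 times the RPKM of WWTR1 in shCtl, and 3.41 and 3.42 times in shM2-3. WWTR1 made up 10.1% of their sum in each shCtl library and 22.7% and 22.6% in shM2-3. On the log2 scale the ratio of YAP1 to WWTR1 fell by 1.38, from 3.15 ± 0.00337 to 1.77 ± 0.00455 (SD, n = 2 each). With 2 libraries per group, an exact two-sided permutation test cannot give a p below 0.333, and it gave 0.333 here. The sum of YAP1 and WWTR1 went from 91.0 and 92.4 RPKM to 137 and 136.

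The TEAD genes split 3 ways. TEAD4 was the most abundant of them in shCtl, with an RPKM of 20.1 and 23.1, and had 8.96 and 8.97 in shM2-3. The shCtl libraries were farther apart from each other than the shM2-3 libraries, yet the lower of them was above both. The mean went from 21.6 ± 2.12 to 8.96 ± 0.0122 RPKM (SD, n = 2 each). The log2FC was -1.21 (SE 0.0901), which is 2.31-fold lower. Without shCtl replicate 1 the log2FC was -1.30, and without shCtl replicate 2 it was -1.11. TEAD4 lies at chr12:2959330-3040676 on the plus strand.

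TEAD2 was the lowest TEAD in shCtl, with an RPKM of 3.26 and 3.40, and had 11.8 and 10.7 in shM2-3. Neither shM2-3 library came near the control values, although replicate 1 was above replicate 2. The log2FC was 1.81 (SE 0.106), a 3.52-fold rise, from 177 and 187 control counts to 778 and 638. The TEAD2 gene (chr19:49340595-49362457, minus strand) shares exonic bases with CD37 on the other strand. The counts of CD37 were 1 and 3 for shCtl and 15 and 14 for shM2-3, few beside those of TEAD2.

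TEAD1 rose by less. It had an RPKM of 12.1 and 12.05 in shCtl and of 17.5 and 17.7 in shM2-3, with no overlap between the groups. Its log2FC was 0.61 (SE 0.0428), or 1.52-fold, which passed the adjusted p and not the fold change limit. TEAD1 lies at chr11:12674421-12944737 on the plus strand, on the same chromosome as YAP1 and MAML2.

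TEAD3 had an RPKM of 6.35 and 6.56 in shCtl and of 6.06 and 6.46 in shM2-3, so that the groups overlapped. Its log2FC was 0.02 (SE 0.0934, BH-adjusted p = 0.848 from the edgeR quasi-likelihood F test). The 95% interval of that change ran from -0.18 to 0.22, and its sign differed between alternatives, including the scaling by total counts. TEAD3 lies at chr6:35473597-35497079 on the minus strand.

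The TEAD mix changed far more than the TEAD total. TEAD4 made up 48.1% and 51.2% of the summed TEAD RPKM in shCtl and 20.2% and 20.5% in shM2-3. TEAD2 went from 7.80% and 7.53% to 26.6% and 24.3%, and TEAD1 from 28.9% and 26.7% to 39.5% and 40.4%. The log2 ratio of TEAD2 to TEAD4 went from -2.70 ± 0.1003 to 0.32 ± 0.103 (SD, n = 2 each), so that TEAD2 passed TEAD4. With counts, which are not per length, in place of RPKM, the change in share was 7.14 percentage points for TEAD2 in place of 17.8, and -14.1 for TEAD4 in place of -29.3. For the shares of TEAD1, TEAD2 and TEAD4 the groups did not overlap, and the exact two-sided permutation p was 0.333, the smallest this design allows. The share of TEAD3 in RPKM, at 15.2% and 14.5% in shCtl and 13.7% and 14.8% in shM2-3, overlapped between groups (exact permutation p = 0.667). With counts in place of RPKM its change was -2.55 percentage points in place of -0.629, and its shares did not overlap between groups. The summed RPKM was 41.9 and 45.2 in shCtl and 44.3 and 43.8 in shM2-3, a difference of 0.512 that lies within the spread of the shCtl libraries (exact permutation p = 1). With RPKM rescaled by TMM factors the sums were 41.9 and 44.9 in shCtl and 46.0 and 45.9 in shM2-3, which do not overlap.

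**Figure D2:**
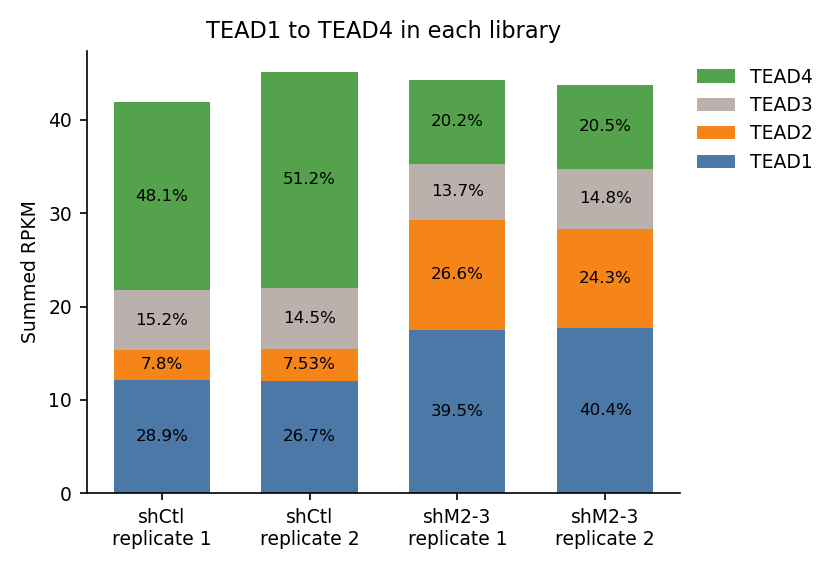
Summed RPKM of TEAD1 to TEAD4 in each library, with each gene's percent of the sum written in its part of the bar. TEAD4 is the largest part in both shCtl libraries and TEAD1 in both shM2-3 libraries, while the bar heights of the groups overlap.

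VGLL3 showed the largest fall in the family as a fold change, while TEAD4 fell by more in RPKM. It had an RPKM of 6.97 and 7.12 in shCtl and of 1.95 and 1.80 in shM2-3. Both shM2-3 libraries were far below the control level, and the replicates lay close to each other. The mean went from 7.05 ± 0.107 to 1.87 ± 0.102 RPKM (SD, n = 2 each), so that 26.6% was left. The log2FC was -1.84 (SE 0.0649), which is 3.59-fold lower, on 1895 and 1969 control counts against 646 and 542. VGLL3 is a TEAD cofactor encoded at chr3:86876388-86991149 on the minus strand, and no annotated exon of another gene overlaps it.

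VGLL4, the YAP1 competitor, moved the other way. It had an RPKM of 9.54 and 9.52 in shCtl and of 19.2 and 20.02 in shM2-3, and the groups were far apart. Its log2FC was 1.11 (SE 0.0551), or 2.15-fold, close to the fold change limit. On the log2(RPKM + 1) scale in limma it was 0.97, under that limit. The VGLL4 gene (chr3:11556069-11771350, minus strand) shares exonic bases with ATG7 on the other strand, whose RPKM was 5.87 and 5.43 in shCtl and 6.15 and 6.25 in shM2-3. The ratio of VGLL4 to VGLL3 RPKM was 1.37 and 1.34 in shCtl and 9.87 and 11.1 in shM2-3, with no overlap (exact permutation p = 0.333, the smallest possible).

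VGLL2 was the lowest member measured. Its RPKM was 0.937 and 0.677 in shCtl and 0.626 and 0.346 in shM2-3, and it rests on few counts, 49 and 36 against 40 and 20. The RPKM ranges of the groups lay apart, whereas the counts overlapped. The log2 ratio of the group means of RPKM was -0.73, with no test in the filtered analysis. It ranged from -1.22 without shM2-3 replicate 1 to -0.37 without shM2-3 replicate 2, and was -0.48 without shCtl replicate 1 and -0.29 on the log2(RPKM + 1) scale. When the filter was dropped, the edgeR quasi-likelihood F test gave a log2FC of -0.69 (BH-adjusted p = 0.135), so a difference was not detectable at this depth.

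**Figure D3:**
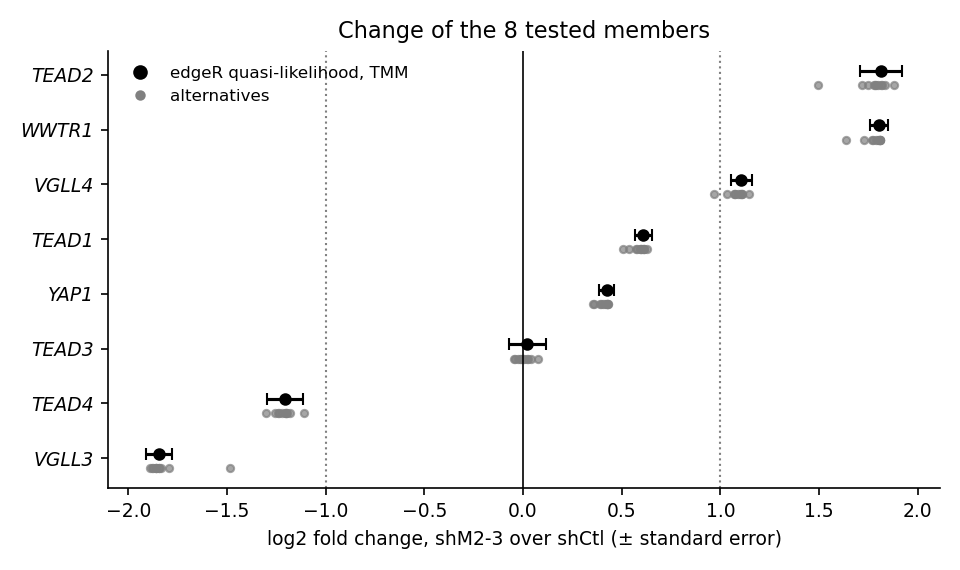
Log2 fold change of the 8 tested members, shM2-3 over shCtl. Black points are the edgeR fit with bars of 1 standard error, grey points the alternative analyses, and dotted lines a fold change of 2. VGLL3 at -1.84 and TEAD2 at 1.81 mark the ends, and the grey points of TEAD3 fall on both sides of 0.

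The order of the levels per length changed with these shifts. In shCtl it ran YAP1, TEAD4, TEAD1, VGLL4, WWTR1, VGLL3, TEAD3, TEAD2 and VGLL2. In shM2-3 it ran YAP1, WWTR1, VGLL4, TEAD1, TEAD2, TEAD4, TEAD3, VGLL3 and VGLL2. In each group no pair of neighbours had overlapping RPKM ranges, but the ranges rest on 2 libraries. The closest neighbours in shCtl were VGLL4, from 9.52 to 9.54, and WWTR1, from 9.21 to 9.32.

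TEAD factors bind the MCAT element, whose core reads GGAATG, and the promoters of the members were searched for it. RefSeq promoter windows of GRCh38.p14, 250 bases before to 50 bases after a start, were matched by symbol for 8 of the 10 members and gave 14 windows. TEAD1 and TEAD4 had no matched window and were not searched. GGAATG or its reverse complement CATTCC occurred in 2 of the 14 windows, those of YAP1 and VGLL1, and in 14.0% of all 35116 windows. The AP-1 motif TGANTCA, which reads the same on both strands, occurred in 0 of the 14 windows and in 7.71% of the same 35116. A match is a description of the letters and not a mapped site, and the absence of one says only that these letters are not in the window. The 250 bases before the start are shown for YAP1 (match in capitals), and for VGLL3, which fell most in fold and has none. They lie at chr11:102110197-102110446 on the plus strand and at chr3:86991150-86991399 on the minus strand.
YAP1: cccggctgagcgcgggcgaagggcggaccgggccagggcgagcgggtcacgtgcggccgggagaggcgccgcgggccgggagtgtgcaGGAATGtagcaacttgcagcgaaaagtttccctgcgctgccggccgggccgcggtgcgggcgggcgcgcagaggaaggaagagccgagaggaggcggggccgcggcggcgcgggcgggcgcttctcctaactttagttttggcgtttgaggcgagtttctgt
VGLL3: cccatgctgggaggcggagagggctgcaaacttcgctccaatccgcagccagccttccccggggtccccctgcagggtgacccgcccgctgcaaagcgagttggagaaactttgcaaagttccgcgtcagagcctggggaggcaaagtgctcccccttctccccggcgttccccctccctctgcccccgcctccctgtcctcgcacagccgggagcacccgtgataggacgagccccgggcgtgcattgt
The match in YAP1 begins 162 bases before the start.

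Genes that act upstream of the family were read from a list of 18 Hippo kinases and scaffolds. By adjusted p, 5 were lower and 9 higher, against 36.4% and 36.3% of all genes tested, and the median log2FC was 0.15. In each direction 1 was called, against 8.93% lower and 9.24% higher of all genes tested. WWC1 (KIBRA), a scaffold that activates the cascade, had an RPKM of 21.7 and 22.1 in shCtl and of 2.07 and 2.10 in shM2-3, a log2FC of -3.33 (SE 0.0567). NF2 (merlin), which recruits LATS kinases to the membrane, fell by 0.87 on the log2 scale. MAP4K4, a kinase that can act on LATS, rose with a log2FC of 1.39 (SE 0.0395), and STK38, a relative of LATS, with 0.92. The LATS kinases themselves had values of 0.15 (LATS1, which did not pass the test) and -0.62 (LATS2, lower).

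Of 16 proteins that bind YAP1 or TAZ mainly in the cytoplasm, 15 were tested, and 6 were lower and 7 higher by adjusted p, near the 36.4% and 36.3% of all genes tested, with a median of 0.07. Of the 15, 1 was called lower and 0 higher, where 8.93% and 9.24% of all genes tested were. The called gene was AMOTL2, an angiomotin that holds YAP1 at junctions and is itself a YAP1 target. It had an RPKM of 84.97 and 84.997 in shCtl and of 5.57 and 5.86 in shM2-3, a log2FC of -3.83 (SE 0.0495). Its paralog AMOTL1 rose with a log2FC of 0.85 (SE 0.0508). The 14-3-3 gene YWHAG, whose product binds phosphorylated YAP1, rose with 0.72.

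Of 25 nuclear partners of YAP1, TAZ and TEAD, 23 were tested, and 5 were lower and 14 higher by adjusted p, against 36.4% and 36.3% of all genes tested, with a median of 0.40. Of the 23, 2 were called lower and 1 higher, where 8.93% and 9.24% of all genes tested were. The called genes were JUN and FOSL1, which are AP-1 subunits, and IRF2BPL. JUN had an RPKM of 148 and 158 in shCtl and of 42.9 and 44.5 in shM2-3, with a log2FC of -1.74 (SE 0.0453). FOSL1 fell by 1.53 on the log2 scale, from 301 and 307 RPKM to 100.4 and 100.5. IRF2BPL, of a corepressor family, rose with 1.21 (SE 0.0551), and the nuclear receptor coactivator NCOA2 with 0.99, which passed the fold change limit without shCtl replicate 1 (1.04) or without shM2-3 replicate 2 (1.05).

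All 22 genes of a list of YAP1/TEAD targets were tested, and 19 were lower and 2 higher by adjusted p, against 36.4% and 36.3% of all genes tested. Of the 22, 12 were called lower, against 8.93%, and 2 higher, near the 9.24% of all genes tested, and the median log2FC was -1.58. The study names 4 of them from these same libraries (CCN1, CCN2, IGFBP3 and AXL), so the list is not independent evidence of its direction. The lowest were ANKRD1, a cardiac ankyrin repeat protein, at -7.20 (SE 0.0706) and CCN1, a matricellular protein, at -4.88 (SE 0.0474). The highest were ARHGEF17, a guanine nucleotide exchange factor, at 1.28 and F3 (tissue factor) at 1.18. F3 rests on few counts, 115 and 87 against 257 and 247, and was under the fold change limit without shCtl replicate 2 (0.97) and on the log2(RPKM + 1) scale (0.81).

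**Figure D4:**
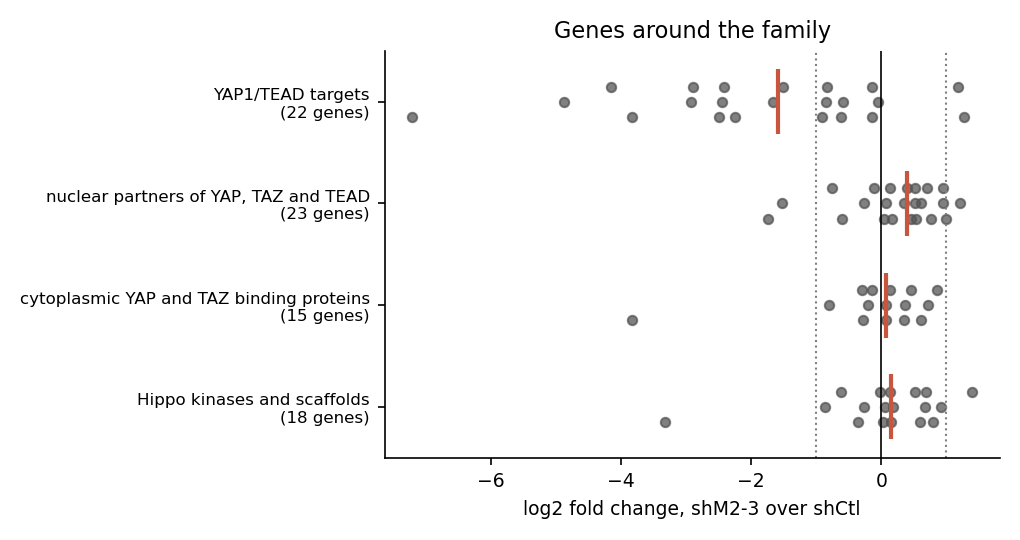
Log2 fold change (shM2-3 over shCtl) of each tested gene in 4 lists, 1 point per gene, with red lines at the list medians and dotted lines at a fold change of 2. The median of the YAP1/TEAD targets is -1.58, and those of the other lists lie between 0.07 and 0.40.

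The genes whose pattern over the 4 libraries was most like that of a member were found among the 6564 genes that reached an RPKM of 5 in all libraries, as the smallest Euclidean distance between centred log2(RPKM + 0.1) profiles. For YAP1 these were SARAF (distance 0.0117), SPG7 (0.0167) and LRCH4 (0.0172). For VGLL3, whose absolute log2FC was the highest in the edgeR fit but within its SE of those of TEAD2 and WWTR1, the nearest included SLC2A3 (0.0699) and RRAS2 (0.0815). SLC2A3, a glucose transporter, had a log2FC of -1.83, near the -1.84 of VGLL3. With 4 libraries in 2 groups, the distance mainly reflects a like size of the change.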

How the data were processed

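Per the labels and methods, the authors aligned paired-end 150-base reads to hg38 with HISAT2 2.0.4, kept unambiguous reads of mapping quality 10 or more, and used Partek 7.18 to quantify RefSeq transcripts. The authors deposited estimated counts, many of them fractional and none normalized, and RPKM values. Reads shared by genes can be split in such estimates.

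Estimated counts were rounded and fitted over 12157 genes by edgeR 4.0.16 under R 4.3.3, using estimateDisp, glmQLFit and glmQLFTest after TMM scaling. The study names edgeR, the RPKM filter and both limits, but not the test. The standard error is the log2 fold change divided by the square root of F. On simulated counts for these genes, 191 of 200 planted changes passed the adjusted p limit in the planted direction, with 9 false calls. The fold change limit was not applied there. The simulation gave all 12157 genes the same dispersion and changed only 200 of them, whereas 72.7% passed the adjusted p in the data. The biological coefficient of variation was 0.0485.

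Alternatives were total counts, DESeq2 1.42.0, no filter, filterByExpr, a replicate block, limma 3.58.1 with trend on log2 RPKM with 0.1 or 1 added, a fold limit of 1.5 and each library left out. Rescaling RPKM by TMM factors for the TEAD sum was chosen after seeing the data. Named genes were the members, MAML2 with its paralogs, the 2 lowest and 2 highest members of each list past the adjusted p, and the 3 genes nearest in pattern to YAP1 and to the member that changed most in the edgeR fit. LATS1, LATS2, CCN2, IGFBP3, AXL and genes overlapping a member were named outside this rule, after values were seen. Members and lists were chosen with earlier results of these data known. Each SD comes from 2 libraries and is imprecise, and low genes carry more counting error. Replicates differed by 3.51 (shCtl) and 4.09 (shM2-3) times sampling noise, as a chi-square per degree of freedom, so no pair was 1 library deposited again. Repeat libraries of 1 culture and separate cultures cannot be told apart by this. Coordinates come from GENCODE release 44 on hg38, the build of the files. Some genes that these rules would name are not reported here.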

Additional observations from a re-analysis of the deposited data

How the results depend on the processing

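For MAML2 and the 7 family members that passed, direction and side of the adjusted p limit held under all 11 alternatives each. In 4 of the 11 a group kept 1 library, which is assumed to vary like the other group, so their adjusted p-values do not bear on stability and only their fold changes do. TEAD3, which did not pass, had a log2 fold change of -0.01 with total counts (-0.0143) and without the RPKM filter (-0.00977), of -0.04 with log2(RPKM + 0.1) (-0.0446) and log2(RPKM + 1) (-0.0390), and between -0.02 (-0.0246) and 0.08 (0.0761) with a library left out, so its sign is not determined. The number of members called higher ranged from 2 on log2(RPKM + 1), where VGLL4 was under the limit, to 4 at a fold change of 1.5. Over all genes, the calls were 2302 lower and 2296 higher at a fold change of 1.5 (18.9% each of 12157 genes). On log2(RPKM + 1) they were 724 lower and 596 higher. At 1.5 the lists had 3 lower and 6 higher of 18 (kinases and scaffolds), 2 and 3 of 15 (cytoplasmic binding proteins), 4 and 7 of 23 (nuclear partners), and 16 and 2 of 22 (YAP1/TEAD targets). With a library left out, nuclear partners called higher ranged from 1 to 2 and YAP1/TEAD targets called higher from 1 to 2, and that was 1 on log2(RPKM + 1). Counts in place of RPKM, which are not per length, gave differences in the TEAD shares of 9.49 (TEAD1), 7.14 (TEAD2), -2.55 (TEAD3) and -14.1 (TEAD4) percentage points. With RPKM + 1 those of TEAD2 and TEAD4 were 16.3 and -26.9, the change in the log2 ratio of YAP1 to WWTR1 was -1.28 (-1.37 with RPKM + 0.1), and that of VGLL4 to VGLL3 was 2.45. The TEAD sum differed by 2.57 RPKM after TMM scaling. The cause of these shifts beyond the changed scale was not tested. Total counts moved the median log2 fold change of all genes by -0.035.

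The labels give both groups the same replicate numbers but no shared batch, and the deviations of same-numbered libraries had a correlation of -0.029 over tested genes. With the replicate block, the log2 fold change was 1.81 for WWTR1 and -1.85 for VGLL3, and the block changed no call among the members.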
